A study of Mus musculus with 18 samples.

Results

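The comparison set cholangiocytes of mice with polycystic liver disease (PLD) against those of wild-type (WT) mice, 2 months after tamoxifen, over all genes: 3 PLD libraries and 3 WT libraries of the 18 in the series. Membership came from the sample titles alone, so no measured value chose these 6 libraries. Cholangiocytes form the epithelium of the bile ducts. Both groups were prepared alike: livers were perfused with collagenase, parenchymal cells were removed, the remaining biliary tree was minced and digested, and cells were captured on magnetic beads with an antibody against EpCAM, an epithelial surface protein. The labels give the genotype only as PLD or WT. They name no inactivated gene, no promoter driving a recombinase and no age, and they do not say what the WT mice carried. PolyA RNA was sequenced. The labels also do not say whether the 3 replicates of a group are separate animals or pooled ones, so the p-values reflect how far these libraries scatter and nothing beyond, and that scatter may be technical.

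In polycystic liver disease, bile ducts detach from the biliary tree and widen into fluid-filled cysts lined by cholangiocytes. Inherited forms involve proteins of the primary cilium, such as the polycystins and fibrocystin, or proteins that fold and glycosylate them in the endoplasmic reticulum. Cyst lining cells are known to secrete chloride and fluid under cyclic AMP, to divide, and to lie on an altered basement membrane. The normal duct, by contrast, is wrapped by arterioles, a capillary plexus, smooth muscle and fibroblasts, so a bead preparation from a minced biliary tree can carry RNA of those cells along with RNA of the epithelium.

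Total counts per library ran from 17048976 to 22761665, and 23498 to 30332 genes had a count in 5 of the 6 libraries. WT replicate 1 had 40039, of which 19502 held only 1 to 9 counts. Mitochondrial transcripts took 1.31% to 1.65% of counts. On the first principal component of the 12 untreated libraries, with 56.1% of the variance, the PLD libraries at 2 months lay between 52.7 and 60.7 and the WT libraries at 2 months between -44.1 and -35.6. Levels below are CPM, counts scaled to library size, and are listed in the order of replicates 1, 2 and 3. Changes are log2 fold changes of PLD against WT ± SE with n = 3 libraries per group. The SE and p come from 1 fit of the 12 untreated libraries, with 8 residual degrees of freedom. They therefore also carry the scatter of the libraries at 1 month. A gene was called where the adjusted p of edgeR was under 0.05.

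The labelled cell type was checked against its markers. Epcam (ENSMUSG00000045394.9, mm10 chromosome 17 from 87635979 to 87651129) had 140, 110 and 161 CPM in WT and 535, 422 and 548 CPM in PLD. Purity was judged by the submitters on CK19, the product of Krt19 (ENSMUSG00000020911.14, mm10 chromosome 11, bases 100140810 to 100148665). Krt19 had 295, 188 and 214 CPM in WT and 3159, 2759 and 2765 CPM in PLD. Both genes were present in every library and lower in all 3 WT libraries than in any PLD library. Endothelial transcripts went the other way: the 16 pan-endothelial markers summed to 8581 to 14253 CPM in WT and to 868 to 1821 CPM in PLD. In bulk RNA, fewer cells of a type and less RNA per cell cannot be told apart, so every level below is a level of the preparation.

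In all, 17749 genes were tested and 7091 were called, 40.0% of them. Of these, 3490 (19.7%) were higher in PLD and 3601 (20.3%) were lower, with a median over all genes of -0.03. Calls counted in any list below are to be read beside these shares. Calls of at least 2-fold numbered 1570 higher (8.85% of genes tested) and 2435 lower (13.7%). Large changes leaned downwards: 610 called genes were at least 4-fold higher and 1217 at least 4-fold lower. Among long intergenic noncoding RNAs 27 were called higher and 112 lower, and among antisense transcripts 39 higher and 117 lower, while protein-coding genes divided into 3271 higher and 3108 lower. Processed pseudogenes divided into 73 higher and 27 lower. The counting did not use strand, so reads of an antisense transcript and of the gene it overlaps cannot be told apart.

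A second scale read every gene against the epithelium itself. Libraries were scaled to the mean of 6 general epithelial genes, Epcam, Cdh1, Krt8, Krt18, Cldn7 and Esrp1, which had risen by 1.83 to 2.14. They were chosen with earlier results of these data known, so their closeness is no separate support for this scale. On this epithelial scale the median gene shifted to -2.12, 16074 genes (90.6%) were called, 209 (1.18%) higher than the epithelial genes and 15865 (89.4%) lower. All 209 were also called higher on the first scale. A gene called higher in the preparation by less than about the rise of these 6 genes therefore falls below 0 on the epithelial scale. The text says for each group which way it went there. Counts of lower genes there are to be read beside the 89.4% of all genes. Counts of higher genes are to be read beside the 1.18%.

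**Figure D1:**
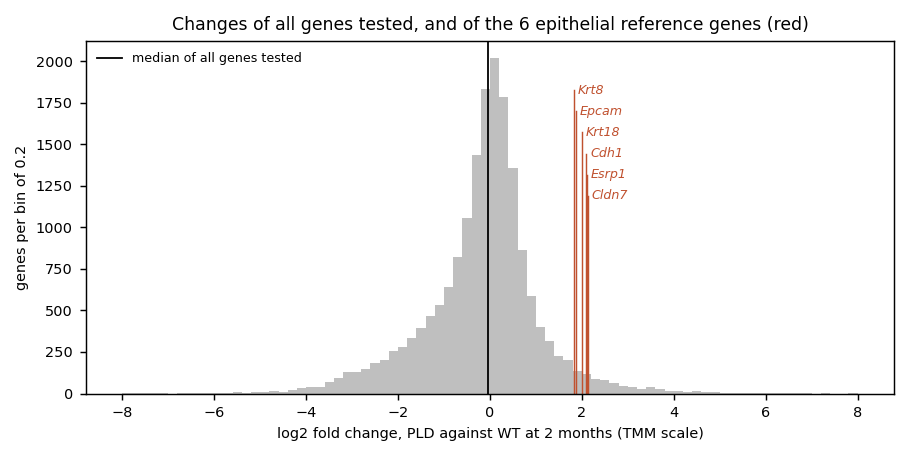
Number of genes (y axis, bins of 0.2) against the log2 fold change of PLD over WT at 2 months (x axis) for all 17749 genes tested. The black line is the median at -0.03, and the red lines mark the 6 epithelial reference genes, which sit together between 1.83 and 2.14.

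Several of the largest increases were in genes of the surface, mucous and keratin lists, such as Psca, Krt20, Msln, Anxa8 and Tff3. Psca (ENSMUSG00000022598.6, chromosome 15 from 74714839 to 74717069), a lipid-anchored surface protein, had 0.817, 0.0903 and 0.157 CPM in WT and 96.1, 63.7 and 105 CPM in PLD (7.88 ± 0.70, adjusted p = 7.66e-05). Krt20 (ENSMUSG00000035775.2, chromosome 11 from 99428403 to 99438150), a keratin of intestinal epithelium, had 1.29, 0.271 and 0.628 CPM in WT and 138, 207 and 163 CPM in PLD (7.83 ± 0.57). Both stood near the floor of detection in WT and were high in all 3 PLD libraries. Msln, a lipid-anchored protein best known from mesothelium, had 9.29, 15.6 and 9.15 CPM in WT and 1101, 1325 and 1106 CPM in PLD (6.69 ± 0.36). Anxa8, which encodes a membrane-binding annexin, went from 2.11, 2.48 and 2.41 CPM to 208, 144 and 261 CPM. Relative to the epithelial genes these 4 were still higher, by 5.89 for Psca, 5.84 for Krt20, 4.53 for Msln and 4.37 for Anxa8.

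Other genes of this size differed more between the PLD libraries. Tff3, a trefoil peptide of mucus-secreting cells, had 1.68, 2.08 and 0.0523 CPM in WT and 115, 47.8 and 159 CPM in PLD (6.36 ± 1.01). Areg, an EGF receptor ligand, had 0.903, 0.542 and 0.418 CPM in WT and 21.3, 49.1 and 43.7 CPM in PLD (5.91 ± 0.57). Apol7a had 0.258, 0.406 and 0.314 CPM in WT and 2.82, 41.3 and 9.42 CPM in PLD. PLD replicate 2 was the lowest of the PLD libraries for Tff3 and the highest for Areg and Apol7a, and no group overlapped the other. Chil4, a secreted chitinase-like protein, had 2.62, 0.406 and 7.69 CPM in WT and 192, 10.5 and 286 CPM in PLD, so that PLD replicate 2 lay close above WT replicate 3. Its change of 5.53 ± 1.58 was not called without WT replicate 1 (adjusted p = 0.0639) or without WT replicate 2 (adjusted p = 0.0609), both by edgeR. Chil3 and Gsta1 rose by 5.37 ± 0.83 and 5.40 ± 0.82. Both have close copies in the mouse genome, and reads that fit several genes were not counted, so their levels are uncertain.

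Other genes among the 15 largest increases included transporters and enzymes. Atp6v0a4, a subunit of the proton pump of acid-secreting cells, had 4.13, 4.47 and 1.88 CPM in WT and 161, 223 and 153 CPM in PLD (5.67 ± 0.42). Npc1l1, which takes up cholesterol at the apical membrane of enterocytes, had 4.13, 1.67 and 0.994 CPM in WT and 119, 94.2 and 108 CPM in PLD (5.54 ± 0.65). Akr1b7, an aldo-keto reductase, rose by 5.86 ± 0.68 and Phgr1 by 6.10 ± 0.72, from at most 0.344 CPM in any WT library for Phgr1. In each of these the lowest PLD library stood well above the highest WT library.

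The 15 largest decreases included the Wnt pathway ligands Wnt9b and Rspo3, the sinusoidal endothelial markers Clec4g and Dnase1l3, and the retinoic acid hydroxylase Cyp26b1. Wnt9b (ENSMUSG00000018486.2, chromosome 11 from 103727364 to 103749821) and Rspo3 (ENSMUSG00000019880.10, chromosome 10 from 29452416 to 29535867) are ligands that hepatic endothelium supplies to hepatocytes. Wnt9b had 166, 247 and 160 CPM in WT and 5.45, 9.97 and 2.84 CPM in PLD (-4.97 ± 0.48). Rspo3 had 212, 318 and 236 CPM in WT and 7.79, 11.9 and 5.32 CPM in PLD (-4.94 ± 0.42). For both genes WT replicate 2 was the highest library, PLD replicate 2 the highest PLD library, and the groups lay far apart. Cyp26b1, which degrades retinoic acid, had 196, 1066 and 278 CPM in WT and 4.74, 26.9 and 4.3 CPM in PLD (-5.42 ± 1.00), with replicate 2 again the highest in each group. F8, the coagulation factor made by sinusoidal endothelium, had 278, 570 and 249 CPM in WT and 13.4, 24.7 and 6.94 CPM in PLD. Fabp4, a fatty acid binding protein of capillaries and fat, fell by 4.77 ± 0.65.

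Others among the 15 were in none of the endothelial lists. Rian, a noncoding RNA of an imprinted cluster, had 34.9, 40.3 and 34.6 CPM in WT and 1.62, 0.65 and 1.97 CPM in PLD (-4.68 ± 0.64). Glp1r, the receptor of the gut hormone GLP-1, had 16.7, 23.3 and 8.68 CPM in WT and 0.18, 0.542 and 1.01 CPM in PLD. Slc26a10, Gpat2, Plppr5, Adh6b and Cnmd fell by 4.62 to 5.37, and their WT levels ranged from 3.19 CPM for Cnmd to 158 CPM for Slc26a10. Rian, Glp1r and these 5 were all highest in WT replicate 2, as were 15 of the 16 pan-endothelial markers, whose part in these genes was not tested. Sprr2b (ENSMUSG00000050092.3, chromosome 3 from 92316620 to 92318085), a small proline-rich protein of squamous epithelium, had 820 counts over the 3 WT libraries and 1 count over the 3 PLD libraries. That is a ratio of 696 with an exact interval of 125 to 27538 that covers counting error only. The Sprr2 genes are near-identical copies, so the split of reads between them is uncertain.

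The most abundant changed transcripts are given as shares of all counts. Clu, an extracellular chaperone, took 0.324%, 0.231% and 0.344% of counts in WT and 0.789%, 0.618% and 1.1% in PLD. Krt8 went from a mean of 0.137% ± 0.0563 (SD, n = 3) to 0.447% ± 0.0398, Cldn4 from 0.0547% ± 0.0274 to 0.392% ± 0.0162, and Krt19 from 0.0245% ± 0.00749 to 0.28% ± 0.026. The elongation factor Eef1a1 rose from 0.458% to 0.748% of counts, and the secreted ligand Gas6 from 0.117% to 0.22%. On the WT side stood von Willebrand factor (Vwf), at 0.291%, 0.387% and 0.2% in WT and 0.0215%, 0.0438% and 0.017% in PLD. The endothelial phosphatase Ptprb fell from 0.275% to 0.0213%, the cytokine receptor subunit Il6st from 0.23% to 0.0452%, and the water channel Aqp1 from 0.228% to 0.0241%. Flna and Ltbp4, which encode a cytoskeletal linker and a matrix protein, also fell. Gsn and Col4a1 were called lower with adjusted p of 0.0404 and 0.038 by edgeR, and each call was lost on leaving out any of 5 of the 6 libraries, with adjusted p between 0.0552 and 0.137. The exception was WT replicate 3.

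Epithelial genes as a class rose. Of the 20 cholangiocyte markers, 14 were called higher and 0 lower, against 19.7% of all genes called higher, with a list median of 1.94. Krt7, a keratin of duct epithelium, had 81.8, 52.3 and 68.6 CPM in WT and 1175, 903 and 1208 CPM in PLD (4.02 ± 0.39). Cldn4, a tight junction claudin, rose by 2.95 ± 0.33, and Tspan8, a tetraspanin, by 2.88 ± 0.27. The 6 markers not called include secretory and ciliary genes of the mature duct. The secretin receptor Sctr had 3.35, 1.31 and 2.88 CPM in WT and 0.3, 0.325 and 1.01 CPM in PLD (-2.17, adjusted p = 0.0664). Cftr, the chloride channel activated through cyclic AMP, had 11.9, 9.44 and 12.8 CPM in WT and 22.5, 7.96 and 13.8 CPM in PLD. Spp1 (osteopontin) had 2005, 1391 and 2916 CPM in WT and 3679, 2214 and 3865 CPM in PLD. The Cftr and Spp1 ranges overlapped, and Sctr was lower in all 3 PLD libraries without passing the test. On the epithelial scale 4 of the 20 markers were higher and 6 lower, with a median of -0.05, so the list as a whole moved with the 6 reference genes, 4 of which it shares. Names beyond those set by the naming rule, such as Sctr, Cftr and Spp1, were chosen after their values were seen.

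Keratins rose unequally. Of 10 tested, 9 were called higher, with a median of 2.54, and Krt17 was the exception at -0.67. Krt23 rose by 1.72 ± 0.17, near the general epithelial change, while Krt4, a keratin of stratified mucosa, went from 0.43, 0.0452 and 0.105 CPM to 7.73, 2.71 and 5.72 CPM (4.72 ± 0.68). Relative to the reference genes 5 keratins were higher and 2 lower, and Krt20, Krt7 and Krt19 kept increases of 5.84, 1.97 and 1.57. Krt8 and Krt18 are in this list and are also reference genes, so they are no result on that scale.

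Cell-to-cell contacts rose with the epithelium. Desmosomes, which anchor keratin filaments of neighbouring cells, were called higher in 10 of 10 genes tested, with a median of 2.26. Perp, a desmosomal membrane protein, had 25, 18.5 and 28.6 CPM in WT and 170, 203 and 155 CPM in PLD (2.88 ± 0.27). Plakophilin 3 (Pkp3) rose by 2.62 ± 0.30 and plakoglobin (Jup) by 1.22 ± 0.15. The linker Dsp went from 254, 166 and 292 CPM to 1315, 1110 and 1138 CPM. In none of the 10 genes did the groups overlap, and over all genes 55.3% showed no overlap. Tight and adherens junction and polarity genes were called higher in 23 of 29 with 0 lower and a median of 1.72. Cldn23 rose by 3.03 ± 0.34, Cldn3 by 2.49 ± 0.29 and the scaffold Tjp3 by 2.38 ± 0.27. Against the 6 reference genes 1 desmosome gene was higher (Perp, 0.85) and 1 lower (Jup, -0.88), and 2 junction genes were higher and 10 lower, with medians of 0.25 and -0.28. Both lists therefore lay close to the 6 reference genes, 3 of which are also in the junction list.

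Surface, mucous and trefoil genes split. Of 24 tested, 12 were called higher and 4 lower, with a median of 1.57. Besides Psca, Msln, Anxa8 and Tff3, the collectin Sftpd had 25.5, 21.3 and 16.4 CPM in WT and 327, 583 and 628 CPM in PLD (4.60 ± 0.51). Tff2, a second trefoil peptide, had 54.5, 31.3 and 10.7 CPM in WT and 282, 67.1 and 281 CPM in PLD, lowest again in PLD replicate 2. Lypd8, a surface protein of colonic epithelium, had 0.258, 0.0903 and 0 CPM in WT and 1.38, 20.8 and 6.38 CPM in PLD, highest in that library. Muc16, a membrane mucin, went from 1.89, 3.03 and 3.09 CPM down to 0, 0.433 and 0.354 CPM. The count called lower was 2 in place of 4 without WT replicate 1, WT replicate 2 or PLD replicate 1. Scaled to the epithelial genes, 7 were higher and 12 lower.

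Brush border genes also rose in part. Of 18 tested, 10 were called higher and 2 lower, with a median of 1.32. Lgals4, a galectin of gut epithelium, had 24.4, 25.3 and 16.9 CPM in WT and 342, 414 and 377 CPM in PLD (4.09 ± 0.42). Ezrin (Ezr), which ties microvilli to the membrane, went from 283, 203 and 282 CPM to 1694, 1604 and 1630 CPM. Plastin 1 (Pls1), an actin bundler of microvilli, rose by 3.70 ± 0.56, and Cdh17, the liver-intestine cadherin, went from 0.817, 0.0452 and 0.262 CPM to 7.19, 7.96 and 21.5 CPM. Each of these was higher in every PLD library than in any WT library, as were 26.8% of all genes. The count lower was 1 without WT replicate 1, PLD replicate 1 or PLD replicate 2. With epithelial scaling 4 of the 18 were higher and 9 lower.

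Transcription factors of liver and gut epithelium were called higher in 15 of 27 and lower in 2, with a median of 1.32. Esr1 (oestrogen receptor alpha; ENSMUSG00000019768.16, chromosome 10 from 4611593 to 5005614) had 13.7, 22.4 and 14.4 CPM in WT and 349, 301 and 273 CPM in PLD (4.19 ± 0.41). Klf5, a factor of proliferating gut epithelium, had 44.4, 31.5 and 43.3 CPM in WT and 452, 457 and 410 CPM in PLD (3.47 ± 0.32). Elf3 rose by 3.43 ± 0.40 and Grhl1, a regulator of epithelial barriers, by 3.11 ± 0.38. All 4 also exceeded the epithelial reference, by 1.18 to 2.03, and they were the 4 of the list called higher on that scale, where 14 were called lower. The duct factor Sox9 went from 97.8, 56.8 and 147 CPM to 353, 513 and 371 CPM, a change equal to that of the reference genes within error (0.08 on the epithelial scale). Gata4, a factor of liver endothelium and stellate cells, had 196, 313 and 275 CPM in WT and 31.8, 47.4 and 32.5 CPM in PLD, and Foxa3, a hepatocyte factor, fell by 2.56 ± 0.53 from levels of 1.22 to 2.3 CPM.

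Basement membrane genes were higher in part and lower in part. Of 20 laminin, collagen IV and nidogen genes, 9 were called higher and 3 lower, with a median of -0.04. Laminin chains of epithelium rose. Lamb3 (ENSMUSG00000026639.18, chromosome 1 from 193207699 to 193343878) had 32.5, 25.4 and 27.6 CPM in WT and 472, 484 and 448 CPM in PLD (4.04 ± 0.29). Lama3 had 56.5, 56.1 and 44 CPM in WT and 197, 226 and 243 CPM in PLD (2.09 ± 0.25). Both chains were higher in each PLD library than in any WT library, and Lama5, the chain of mature epithelial and vascular basement membranes, rose by 1.40 ± 0.17. The vascular chain Lama4 had 198, 245 and 158 CPM in WT and 44.1, 30.2 and 53.1 CPM in PLD (-2.24 ± 0.24), and perlecan (Hspg2) fell by 1.19 ± 0.21. Col4a3 rose by 1.38 ± 0.20, opposite to Col4a1. Set against the epithelial genes, 14 of the 20 were lower, beside 89.4% of all genes. Only Lamb3 was called higher there (1.96), while Lama3 lay at -0.03. The part of endothelial RNA in the decreases of this list was not tested.

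Integrins, the receptors for that matrix, moved in both directions. Of 16 subunits, 5 were called higher and 7 lower, beside 19.7% and 20.3% of all genes, with a median of -0.79. Itga6 and Itgb4, the laminin-binding pair of the hemidesmosome, rose by 0.84 ± 0.13 and 1.36 ± 0.18, with Itgb4 at 133, 107 and 110 CPM in WT and 309, 284 and 307 CPM in PLD. Itgb6 rose by 1.32 ± 0.19, and Itga3, another laminin receptor chain, went from 197, 168 and 270 CPM to 671, 669 and 669 CPM. Itga9, a receptor chain of vessels and muscle, had 291, 506 and 264 CPM in WT and 90.8, 60.4 and 85 CPM in PLD (-2.17 ± 0.30). On the epithelial scale 14 of the 16 were lower, beside 89.4% of all genes, and 0 higher, beside 1.18%. The largest value of the list there was -0.36.

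Transport genes bear on cyst fluid. Of 23 ion and water transport genes, 13 were called higher and 2 lower, with a median of 0.73, and without WT replicate 2 the count called higher was 8. The count lower was 1 without WT replicate 1, WT replicate 2, PLD replicate 1 or PLD replicate 3. The calcium-activated chloride channel Ano1 had 131, 118 and 117 CPM in WT and 857, 509 and 951 CPM in PLD (2.66 ± 0.30). The chloride channel Clcn2 had 17.2, 14.9 and 15.8 CPM in WT and 96.5, 122 and 92 CPM in PLD, with no overlap. The potassium channels Kcnq1 and Kcnk1 rose by 2.40 ± 0.26 and 2.06 ± 0.25. Among water channels, Aqp5 went from 12, 8.08 and 1.46 CPM to 44.4, 48.5 and 44.8 CPM, whereas Aqp1, found in both duct cells and endothelium, had 1518, 3033 and 2100 CPM in WT and 198, 404 and 154 CPM in PLD (-3.14 ± 0.57). All of these groups were separate, as were those of 55.3% of all genes. Relative to the reference genes 13 of the 23 were lower and Clcn2 alone was called higher (0.62), while Ano1, Kcnq1 and Kcnk1 moved with the reference genes.

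Of 17 bile acid and drug transporters, 6 were called higher and 5 lower, beside 19.7% and 20.3% of all genes. Without PLD replicate 1 or PLD replicate 3 the count lower was 3. Slc10a2, which reclaims bile acids at the apical membrane of ducts and ileum, had 6.58, 4.11 and 6.28 CPM in WT and 47.8, 61.4 and 55.1 CPM in PLD (3.28 ± 0.48). The basolateral exporter Abcc3 went from 62, 53.5 and 94.4 CPM to 394, 423 and 420 CPM, and the bile acid receptor Nr1h4 (FXR) rose by 1.11 ± 0.15. Abcg2, an exporter present in vessels and epithelia, had 86.6, 98.6 and 115 CPM in WT and 32.6, 32.9 and 38 CPM in PLD. Against the 6 reference genes only Slc10a2 was called higher and 11 were lower.

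Of 25 genes of cyclic AMP signalling, which drives fluid secretion, 12 were called lower and 2 higher, with a median of -0.58. The count lower was 7 without PLD replicate 1 or PLD replicate 3 and 8 without WT replicate 2 or PLD replicate 2. Adcy4, an adenylyl cyclase of endothelium, had 171, 215 and 159 CPM in WT and 17.7, 27.4 and 16.2 CPM in PLD (-3.15 ± 0.39). Adcy5 fell by 2.66 ± 0.43 and Rapgef3, a cyclic AMP sensor known as Epac1, by 2.37 ± 0.38. Creb1, the transcription factor of the pathway, fell less, from 71.4, 77.1 and 80.4 CPM to 52.8, 52.1 and 53.2 CPM. It was lower in every PLD library than in any WT library, as were 28.5% of all genes. Scaled to the epithelial genes, 24 of the 25 were lower, beside 89.4% of all genes. The pan-endothelial sum moved in the same direction, from 8581 to 14253 CPM in WT to 868 to 1821 CPM in PLD, and its part in this list was not tested.

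Markers of the cells around the duct were lower. All 16 pan-endothelial and all 12 sinusoidal endothelial markers were called lower, against 20.3% of all genes, both with a median of -3.12. The angiopoietin receptor Tek (ENSMUSG00000006386.15, chromosome 4 from 94739289 to 94874976) had 458, 705 and 449 CPM in WT and 24.9, 52.9 and 20.7 CPM in PLD (-4.03 ± 0.51). Pecam1 went from 992, 1386 and 855 CPM to 87.6, 179 and 74.4 CPM, and Cdh5 from 642, 1045 and 649 CPM to 78.6, 152 and 64.1 CPM. Of the sinusoidal scavenger genes, Stab1 had 1277, 2160 and 1362 CPM in WT and 338, 178 and 244 CPM in PLD, and Cd36 fell by 3.58 ± 0.49. Defining endothelial markers were low but not at 0 in PLD. In WT they were highest in replicate 2, for 15 of the 16 pan-endothelial and 12 of the 12 sinusoidal genes, and in PLD all 16 pan-endothelial genes were highest in replicate 2. Without WT replicate 2 the medians were -2.87 and -2.78, with 16 and 10 genes called lower.

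Smooth muscle and pericyte markers fell almost as uniformly, with 12 of 13 called lower and a median of -2.24. Myh11, the smooth muscle myosin, had 1231, 1256 and 1463 CPM in WT and 148, 195 and 137 CPM in PLD (-3.04 ± 0.52). Acta2 went from 1361, 1413 and 1501 CPM to 138, 162 and 172 CPM, Actg2 from 149, 152 and 177 CPM to 9.59, 9.21 and 12.5 CPM, and Cnn1 fell by 3.56 ± 0.70. The pericyte gene Cspg4 fell by 1.65 ± 0.26. Within each group these genes differed little between libraries. All 13 were lower on the epithelial scale, as were 89.4% of all genes.

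Fibroblast and stellate cell markers were divided. Of 20, 10 were called lower and 1 higher, with a median of -1.02, but the count lower was 4 without WT replicate 2 or PLD replicate 1, 5 without PLD replicate 2, and 6 without WT replicate 1 or PLD replicate 3. Reln, a stellate cell gene, had 151, 426 and 336 CPM in WT and 41, 35.5 and 37 CPM in PLD (-3.01 ± 0.52), and Des had 242, 295 and 247 CPM in WT and 57.2, 63.2 and 62.6 CPM in PLD. The collagen gene Col1a1 behaved differently, with 1048, 1912 and 566 CPM in WT and 1319, 424 and 1718 CPM in PLD (-0.03 ± 0.62). Its WT and PLD ranges overlapped fully, with the top WT value in replicate 2 and the lowest value of all in PLD replicate 2. Thy1 was the member called higher, from 33.8, 38.3 and 31.2 CPM to 138, 97.6 and 172 CPM. With epithelial scaling 19 of the 20 were lower and 0 higher, beside 89.4% lower among all genes.

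**Figure D2:**
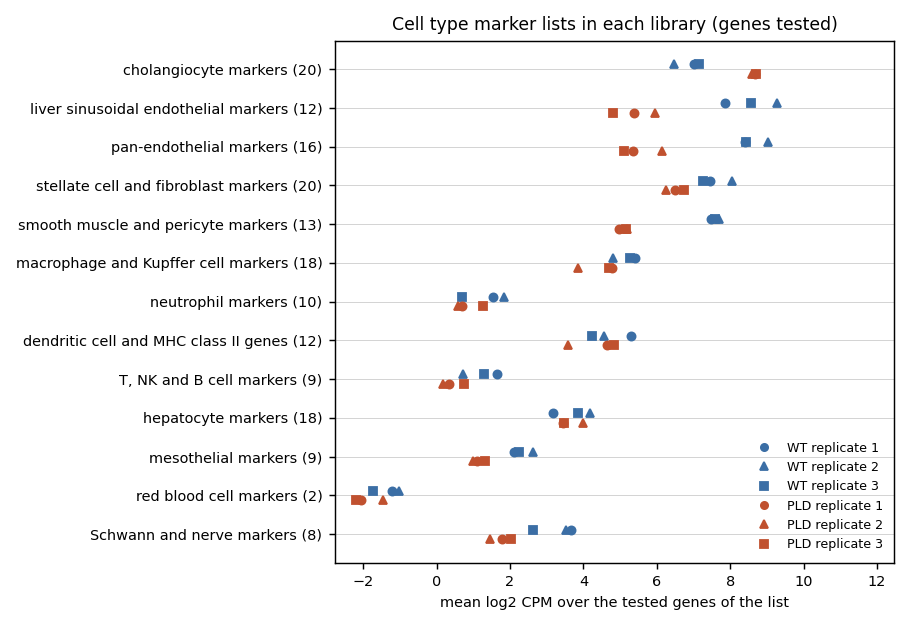
Mean log2 CPM (x axis) of the tested genes of each cell type marker list (y axis, number of genes in brackets), one point per library, WT in blue and PLD in red. The groups lie apart for cholangiocyte, endothelial, smooth muscle, fibroblast, macrophage, mesothelial and Schwann lists and overlap for neutrophil, dendritic, lymphocyte, red blood cell and hepatocyte lists.

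Immune markers showed few calls. Of 18 macrophage markers, 4 were called lower and 1 higher, beside 20.3% and 19.7% of all genes. Csf1r, the receptor for the macrophage growth factor, had 270, 128 and 246 CPM in WT and 730, 538 and 599 CPM in PLD (1.53 ± 0.28). The Kupffer cell gene Cd5l had 6.92, 16.2 and 18.9 CPM in WT and 1.5, 2.27 and 1.52 CPM in PLD (-2.98 ± 0.53). The other calls, among them Vsig4 and Marco, rested on low levels, and the count lower was 1 without WT replicate 2, WT replicate 3 or PLD replicate 3, and 2 without PLD replicate 1. The summed macrophage level ran from 1039 to 2031 CPM in WT and from 1181 to 2217 CPM in PLD, so the groups overlapped, while the mean log2 CPM of the list ran from 4.82 to 5.40 in WT and from 3.85 to 4.78 in PLD, without overlap. Among 12 dendritic cell and MHC class II genes only Clec9a was called, falling from 12, 24.4 and 10.8 CPM to 1.08, 2.44 and 0.81 CPM. Neutrophil genes had 1 call of 10 (Ltf), and lymphocyte genes 1 of 9 (Trac). Both calls were lost when single libraries were left out, with adjusted p of 0.0523 to 0.0792 for Ltf and 0.0635 to 0.146 for Trac by edgeR. The call of Ltf held without WT replicate 3, and that of Trac in none of the 6. Set against the epithelial genes, 17 of the 18 macrophage genes and all 12 dendritic genes were lower, beside 89.4% of all genes.

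Hepatocyte markers went both ways. Of 18, 6 were called higher and 6 lower, beside 19.7% and 20.3% of all genes. Albumin (Alb) had 525, 503 and 779 CPM in WT and 4951, 1541 and 4655 CPM in PLD (2.62 ± 0.71), with PLD replicate 2 at the low end, and its call was lost without WT replicate 2 (2.53, adjusted p = 0.0527 by edgeR). Apob, the structural protein of very low density lipoprotein, had 10.7, 25.6 and 22.4 CPM in WT and 639, 650 and 901 CPM in PLD (5.22 ± 0.88). Cyp2e1, a microsomal oxidase, rose by 3.42 ± 0.67, and the liver factor Hnf4a went from 34.5, 24.7 and 30.3 CPM to 188, 172 and 166 CPM. In contrast, Apoa2 had 2.24, 8.94 and 6.59 CPM in WT and 0.24, 1.14 and 0.101 CPM in PLD. Cps1, the first enzyme of the urea cycle, had 1.59, 4.47 and 3.14 CPM in WT and 0.0599, 0.271 and 0.253 CPM in PLD, with its call lost without WT replicate 2 or any one PLD library (adjusted p of 0.0565 to 0.0803). The count called lower was 1 without WT replicate 2, PLD replicate 1 or PLD replicate 3. On the epithelial scale 13 of the 18 were lower and Apob alone was higher.

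Mesothelial and nerve markers were mostly lower, with exceptions. Of 9 mesothelial genes, 7 were called lower, among them Gpm6a at 74.2, 94.5 and 83.3 CPM in WT and 14.6, 6.28 and 7.7 CPM in PLD. Bnc1 had 64 counts over the WT libraries and 1 over the PLD libraries, a ratio of 54.4 with an exact interval of 9.41 to 2180 for counting error. The 2 called higher were Msln and Upk1b, a uroplakin, which went from 0.731, 1.13 and 2.25 CPM to 9.29, 9.32 and 8.61 CPM. Of 8 Schwann and nerve genes, 6 fell, including the glial factor Sox10 (-3.28 ± 0.53) and Cdh19, and 2 rose. Mbp, known from myelin, rose from 55.6, 45.7 and 61.8 CPM to 259, 306 and 264 CPM, and S100b rose by 1.70 ± 0.40. Relative to the reference genes Msln stayed higher, Upk1b and Mbp moved with the reference (0.74 and 0.30, not called), and 7 mesothelial and 6 Schwann genes were lower.

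Wnt ligands moved in both directions. Of 15 tested ligands and R-spondins, 7 were called higher and 4 lower, beside 19.7% and 20.3% of all genes. Besides Wnt9b and Rspo3, Wnt2, another ligand of sinusoidal endothelium, went from 55.3, 111 and 55 CPM to 2.94, 4.22 and 5.72 CPM, and Rspo1 fell by 3.12 ± 0.56. Wnt7a (ENSMUSG00000030093.7, chromosome 6 from 91363981 to 91411363) had 5.55, 2.8 and 5.6 CPM in WT and 117, 142 and 141 CPM in PLD (4.85 ± 0.34). Wnt7b went from 17.3, 12.1 and 7.43 CPM to 173, 158 and 198 CPM, and Wnt10a from 2.97, 1.13 and 2.09 CPM to 30.3, 31.3 and 33 CPM. These 3 ligands are known from epithelia and were the 3 of the list called higher on the epithelial scale, where 9 were lower. Of 18 Wnt feedback and target genes, 9 were called higher and 1 lower, and the count higher was 6 without WT replicate 2, with a median of 0.90. The gene called lower was not called without PLD replicate 1 or PLD replicate 2, and 2 were called lower without WT replicate 3. Axin2, a negative feedback target of beta-catenin, had 12.1, 11.1 and 8.58 CPM in WT and 31, 53.5 and 43.1 CPM in PLD (2.01 ± 0.31). Notum, a secreted enzyme that inactivates Wnt proteins, had 1.2, 0.722 and 0 CPM in WT and 18.6, 8.4 and 15.1 CPM in PLD. Against the 6 reference genes Axin2 stood at -0.11 and Notum at 2.25, while 12 of the 18 were lower.

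Growth factor genes of the EGF family were called higher in 7 of 14 and lower in 2, beside 19.7% and 20.3% of all genes. Areg rose the most. Hbegf, a heparin-binding ligand, had 246, 178 and 370 CPM in WT and 1136, 1491 and 1070 CPM in PLD (2.22 ± 0.28), and Tgfa rose by 1.59 ± 0.27. Of the receptors, Erbb3 had 74.2, 55.9 and 98.8 CPM in WT and 306, 330 and 306 CPM in PLD (2.04 ± 0.26), and Erbb2 rose by 1.63 ± 0.21. Nrg1, a ligand of Erbb3, went the other way, with 94.5, 84.6 and 78.8 CPM in WT and 13.7, 12.9 and 15.4 CPM in PLD (-2.62 ± 0.25). The count lower was 1 without WT replicate 3, PLD replicate 1 or PLD replicate 3. Scaled to the epithelial genes, Areg was the 1 gene called higher and 8 were lower.

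In the Notch, TGF-beta and VEGF lists more genes were called lower than higher. Of 17 Notch pathway genes 8 were called lower and 1 higher, with a median of -0.40. Notch3, the receptor of mural cells, had 590, 719 and 778 CPM in WT and 102, 102 and 101 CPM in PLD (-2.78 ± 0.39). Notch1 had 364, 526 and 393 CPM in WT and 98.4, 158 and 75.3 CPM in PLD, and the endothelial ligand Dll4 fell by 1.78 ± 0.43. The count higher was 2 without PLD replicate 1 or PLD replicate 3 and 0 without PLD replicate 2 or WT replicate 2. The target gene Hes1 had 194, 180 and 365 CPM in WT and 298, 1294 and 361 CPM in PLD, so that only PLD replicate 2 stood above all WT libraries. Of 22 TGF-beta and BMP genes 10 were called lower and 2 higher, with a median of -0.74. Eng, an endothelial co-receptor, went from 1179, 2214 and 1493 CPM to 267, 347 and 241 CPM and Acvrl1 fell by 1.59 ± 0.29, while the type I receptor Tgfbr1 rose by 0.81 ± 0.12. Of 16 VEGF and angiopoietin genes 13 fell, with a median of -2.04. Vegfb rose, from 20.5, 20 and 20.4 CPM to 37.6, 35.7 and 34.9 CPM, and Vegfa had 208, 142 and 197 CPM in WT and 298, 392 and 260 CPM in PLD without passing the test (adjusted p = 0.0754). Several of these genes, such as Tek, Kdr, Eng and Notch3, are also in the endothelial or smooth muscle lists, whose part in these lists was not tested. With epithelial scaling 16 of 17, 21 of 22 and 16 of 16 genes of the 3 lists were lower. Among all genes 89.4% were.

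Hedgehog and YAP genes were called about as often as the 40.0% of all genes. Of 16 Hedgehog genes 3 were called in each direction. The ligand Ihh had 6.97, 3.3 and 4.24 CPM in WT and 27.9, 28.6 and 27.3 CPM in PLD (2.53 ± 0.49), whereas the ligand Dhh had 13.4, 13.1 and 9.73 CPM in WT and 2.1, 1.95 and 1.27 CPM in PLD (-2.77 ± 0.30). Shh had 0.215, 0.0452 and 0.0523 CPM in WT and 3, 5.09 and 1.97 CPM in PLD. By edgeR its call was lost without WT replicate 2 (adjusted p = 0.07) or WT replicate 3 (adjusted p = 0.0599). With limma-voom on all libraries Shh was not called (adjusted p = 0.216). Of 17 YAP and TEAD targets 5 were called lower and 2 higher. Ccn1 had 1482, 1293 and 2067 CPM in WT and 554, 795 and 681 CPM in PLD (-1.25 ± 0.26), and the kinase gene Lats2 fell by 1.27 ± 0.22. The 2 YAP targets called higher were not called without WT replicate 2, and 1 of them was called without WT replicate 3 or any one PLD library. Set against the epithelial genes, 13 of the 16 Hedgehog genes were lower and 1 higher, and 15 of the 17 YAP targets were lower. Among all genes 89.4% were lower. The Hedgehog gene called higher there was Shh, which stood near the floor of detection in WT.

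**Figure D3:**
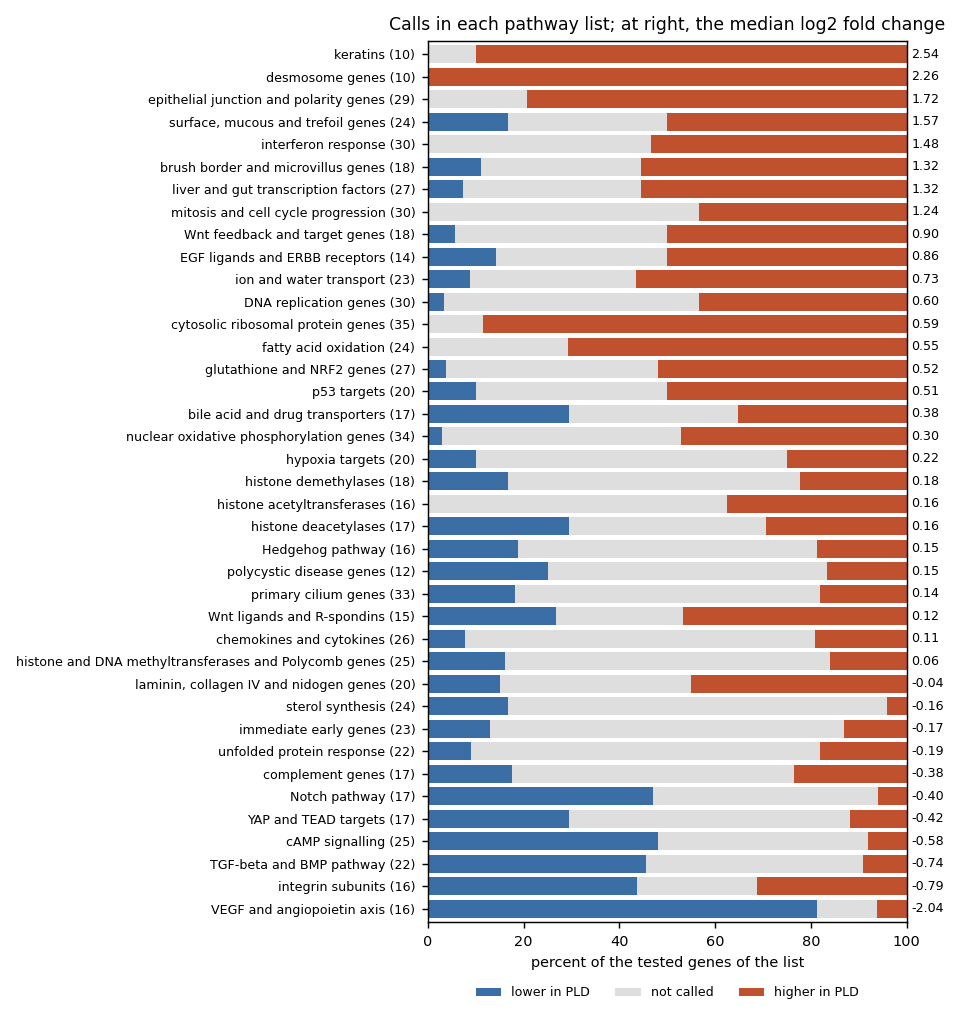
Share of the tested genes of each pathway list (y axis, number of genes in brackets) called lower in PLD (blue), not called (grey) and called higher (red), with the median log2 fold change at the right. Over all 17749 genes 20.3% were lower and 19.7% higher. Keratin, desmosome and junction lists stand at the top and the VEGF list at the bottom. On the epithelial scale the medians are about 2 units lower, and stay above 0 only for the keratin and desmosome lists. The keratin list holds Krt8 and Krt18, which are also reference genes of that scale.

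Cell cycle genes rose in part. Of 30 mitosis genes 13 were called higher and 0 lower, with a median of 1.24, and of 30 DNA replication genes 13 were higher and 1 lower, with a median of 0.60. Among all genes 19.7% were called higher and 20.3% lower. Kif23, a kinesin of cytokinesis, had 7.61, 6.05 and 2.82 CPM in WT and 88.4, 53.6 and 74.4 CPM in PLD (3.71 ± 0.45). Most other members were scarce: Cdc20 had 3.57, 2.93 and 3.45 CPM in WT and 11.2, 8.18 and 12.3 CPM in PLD, and Ccnb1 had 0.602, 1.08 and 0.209 CPM in WT and 2.16, 1.46 and 3.85 CPM in PLD. The licensing factor Cdt1 had 7.44, 4.88 and 6.7 CPM in WT and 25.4, 18.8 and 23 CPM in PLD (1.82 ± 0.24), and the DNA ligase Lig1 rose by 1.34 ± 0.27. The mean log2 CPM of the mitosis list was 1.59, 1.94 and 0.65 in WT and 2.60, 1.95 and 3.12 in PLD, so PLD replicate 2 did not stand apart from WT replicate 2. It was the lowest PLD library in 27 of the 30 mitosis genes and in 27 of the 30 replication genes. The count of mitosis genes called higher fell to 6 without WT replicate 1, 5 without WT replicate 3 or PLD replicate 1, and 4 without PLD replicate 3, where Ccnb1 lost its call (adjusted p = 0.0529). The count of replication genes fell to 6, 7, 5 and 7 without WT replicate 2, WT replicate 3, PLD replicate 1 and PLD replicate 3. Relative to the reference genes Kif23 alone was higher, and 13 mitosis and 25 replication genes were lower, beside 89.4% of all genes.

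Targets of p53, the stress-responsive tumour suppressor, were called higher in 10 of 20 and lower in 2, with a median of 0.51. Among all genes 19.7% were called higher and 20.3% lower. Pmaip1 (Noxa), a pro-death factor, had 52.8, 29.4 and 34.8 CPM in WT and 150, 204 and 158 CPM in PLD (2.13 ± 0.31), and Ccng1 rose by 0.70 ± 0.12. Perp, the largest change of the list, is also a desmosome gene. Cdkn1a, the cell cycle inhibitor p21, had 142, 176 and 227 CPM in WT and 326, 373 and 275 CPM in PLD and just missed the threshold (0.84, adjusted p = 0.0516). Sesn1 fell by 0.77 ± 0.15. Against the 6 reference genes Perp alone was higher and 17 of the 20 were lower, beside 89.4% of all genes.

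Metabolic lists rose by modest amounts in the preparation and lay below the epithelial rise. Fatty acid oxidation genes were called higher in 17 of 24 and lower in 0, with a median of 0.55. Hadha, a subunit of the mitochondrial trifunctional protein, had 134, 154 and 135 CPM in WT and 260, 294 and 263 CPM in PLD (0.95 ± 0.11). Cpt1a, the entry step of long-chain fatty acids, rose by 0.90 ± 0.13. Nuclear genes of oxidative phosphorylation were called higher in 16 of 34 and lower in 1, with a median of 0.30, led by Uqcrfs1 at 48.8, 48 and 53.5 CPM in WT and 90.8, 96.4 and 91.3 CPM in PLD. Cytosolic ribosomal protein genes were called higher in 31 of 35, and in 19 without WT replicate 1, with a median of 0.59. Rps9 had 370, 392 and 444 CPM in WT and 774, 948 and 718 CPM in PLD, and PLD replicate 2 was the highest of the 6 libraries in 34 of the 35 genes. Sterol synthesis genes showed no common rise, with 1 of 24 higher and 4 lower. Stard4, which carries cholesterol, had 77, 76.1 and 89.8 CPM in WT and 45.5, 22.9 and 40.7 CPM in PLD (-1.16 ± 0.22). The count lower was 2 without WT replicate 1, where Idi1 lost its call (adjusted p = 0.0511). Scaled to the epithelial genes, 23 of 24, 34 of 34, 35 of 35 and 24 of 24 members of these 4 lists were lower. Among all genes 89.4% were.

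Glutathione and NRF2 genes, which conjugate and neutralise reactive compounds, were called higher in 14 of 27 and lower in 1, with a median of 0.52. Gsta4, a transferase for lipid peroxidation products, had 13.8, 13.9 and 7.9 CPM in WT and 437, 326 and 397 CPM in PLD (5.02 ± 0.48). Gsto1 had 55.6, 60.6 and 33.9 CPM in WT and 463, 465 and 475 CPM in PLD (3.22 ± 0.42). Tkt, an enzyme of the pentose phosphate pathway, rose by 1.61 ± 0.16, and Gclc, which limits glutathione synthesis, by 1.42 ± 0.30. Nqo1, a classical NRF2 target, went against them, with 17.9, 21.9 and 34.8 CPM in WT and 3.24, 4.28 and 2.63 CPM in PLD (-2.88 ± 0.37). With epithelial scaling Gsta1, Gsta4 and Gsto1 were higher and 20 were lower. The letters TGACNNNGC, the core of the antioxidant response element, were searched on both strands in the 250 bases before each RefSeq transcript start (GRCm38.p6). They occurred before 7 of the 23 list genes with a promoter in the table, and before 11.5% of all 27025 genes there.

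Interferon response genes were called higher in 16 of 30 and lower in 0, with a median of 1.48, and their libraries differed widely. Oas3, which senses double-stranded RNA, had 7.4, 5.28 and 1.88 CPM in WT and 10.8, 200 and 39.5 CPM in PLD (4.09 ± 0.91). Irf7, the transcription factor that amplifies the response, had 71.8, 95.1 and 30.8 CPM in WT and 113, 819 and 305 CPM in PLD (2.65 ± 0.61). Oasl1 had 48.2, 64.5 and 41.8 CPM in WT and 233, 364 and 186 CPM in PLD (2.34 ± 0.48). PLD replicate 2 was the highest of the 6 libraries in 28 of the 30 genes. The mean log2 CPM of the list was 5.57, 5.77 and 4.70 in WT and 5.61, 7.82 and 6.29 in PLD, so PLD replicate 1 lay within the WT range. Ifit3 had 47.8, 70 and 14.4 CPM in WT and 36.7, 1153 and 75.5 CPM in PLD. Without PLD replicate 2 the change in Ifit3 was 0.39 (adjusted p = 0.61) and that in Isg15 was 0.62 (adjusted p = 0.292). Both calls were also lost without any one WT library, with adjusted p of 0.0591 to 0.0971 for Ifit3 and 0.0598 to 0.113 for Isg15 by edgeR. Without PLD replicate 2 the list had 9 genes higher, 1 lower and a median of 0.51. The count higher was 10, 10 and 8 without WT replicates 1, 2 and 3. Set against the epithelial genes, Oas3 alone was higher and 13 were lower.

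Promoter sequences of the list are shown because its members moved together from library to library. The letters GAAA, any 2 bases and GAAA again, the core of the interferon-stimulated response element, were searched on both strands in the 250 bases before each RefSeq transcript start (GRCm38.p6). A match stood before 10 of the 23 list genes with a promoter in the table, and before 3.46% of all 27025 genes there. A match is a description of these letters and not a measured binding site. Capitals mark the matches in the 4 called genes with the smallest p among those holding one. Each sequence runs 5′ to 3′ on the strand of the gene and ends at the base before the transcript start. Oas3 (chr5:120777660-120777909, minus strand) and Oas1a (chr5:120907526-120907775, minus strand) hold the forward letters, and Ifit1 (chr19:34640639-34640888, plus strand) and Ifit3 (chr19:34583279-34583528, plus strand) hold their reverse complement.
Oas3: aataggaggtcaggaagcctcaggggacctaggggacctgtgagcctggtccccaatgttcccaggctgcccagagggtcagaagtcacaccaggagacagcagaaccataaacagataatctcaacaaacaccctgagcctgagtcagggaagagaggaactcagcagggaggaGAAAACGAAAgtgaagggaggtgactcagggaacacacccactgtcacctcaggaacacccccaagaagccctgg
Oas1a: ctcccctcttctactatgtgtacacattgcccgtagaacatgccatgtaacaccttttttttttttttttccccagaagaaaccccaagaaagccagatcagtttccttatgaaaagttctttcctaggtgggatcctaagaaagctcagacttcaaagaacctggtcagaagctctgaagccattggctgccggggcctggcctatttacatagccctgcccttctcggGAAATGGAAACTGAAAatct
Ifit1: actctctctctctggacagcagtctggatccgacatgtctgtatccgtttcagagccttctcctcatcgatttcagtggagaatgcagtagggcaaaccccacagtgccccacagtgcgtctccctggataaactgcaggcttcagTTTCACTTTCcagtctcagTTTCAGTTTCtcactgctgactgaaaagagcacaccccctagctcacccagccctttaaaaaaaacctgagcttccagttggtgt
Ifit3: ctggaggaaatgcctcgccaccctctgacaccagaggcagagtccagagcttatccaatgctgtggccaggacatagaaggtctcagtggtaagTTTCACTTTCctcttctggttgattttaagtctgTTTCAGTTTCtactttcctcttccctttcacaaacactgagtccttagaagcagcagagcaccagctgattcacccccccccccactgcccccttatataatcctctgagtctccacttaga
The match began 75 bases before the start in Oas3. In Oas1a 2 overlapping matches began 20 and 14 bases before it. In Ifit1 they began 104 and 85 bases before it, and in Ifit3 156 and 122 bases before it. Across the 6 libraries these 4 genes shared their order in PLD, with replicate 2 highest, replicate 3 next and replicate 1 lowest: Ifit1 had 38.6, 516 and 50.3 CPM and Oas1a 46.7, 228 and 76 CPM. Irf1, a factor of the same pathway, had this order in PLD too, but with a narrow spread and no rise. It had 279, 307 and 319 CPM in WT and 210, 264 and 218 CPM in PLD.

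**Figure D4:**
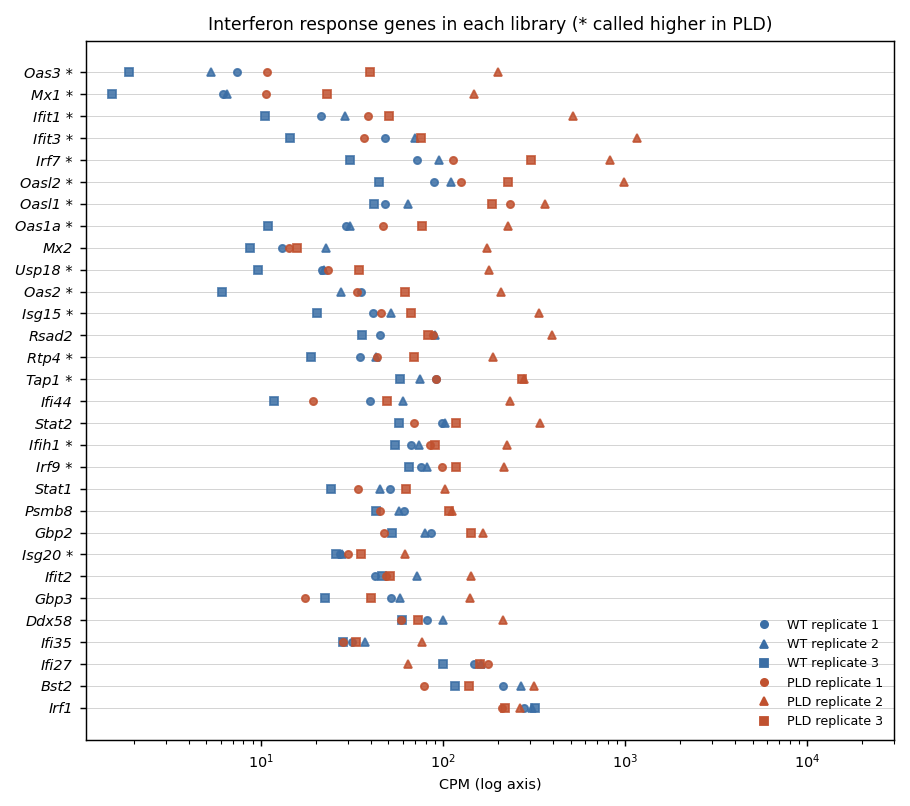
CPM (x axis, log scale) of the 30 interferon response genes (y axis, ordered by fold change) in each library, WT in blue and PLD in red; a star marks the 16 genes called higher in PLD. The triangle of PLD replicate 2 lies farthest to the right in 28 of the 30 genes, and the other PLD libraries lie nearer to the WT libraries.

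Inflammatory, hypoxia and stress lists were called no more often than the 40.0% of all genes, apart from complement, which was near it. Of 26 chemokines and cytokines 5 were called higher and 2 lower: Il1rn, the interleukin-1 receptor antagonist, had 11.8, 16.2 and 7.69 CPM in WT and 147, 80.5 and 170 CPM in PLD (3.48 ± 0.51), and the alarmin Il33 fell by 1.71 ± 0.25. Of 17 complement genes 4 were higher and 3 lower. Factor B (Cfb) rose by 1.94 ± 0.26, while the membrane inhibitor Cd59a had 123, 177 and 152 CPM in WT and 17.9, 26 and 19.5 CPM in PLD (-2.83 ± 0.25). Of 20 hypoxia targets 5 were higher and 2 lower, led by Egln3, an oxygen-sensing hydroxylase, at 21.3, 21.7 and 20.8 CPM in WT and 291, 177 and 305 CPM in PLD (3.60 ± 0.27). Car9 rose by 3.43 ± 0.65. Of 22 genes of the unfolded protein response 4 were higher and 2 lower, with Herpud1 rising by 1.21 ± 0.26, and the 2 lower calls became 6 without WT replicate 3 and 0 without WT replicate 2, PLD replicate 1 or PLD replicate 2. Of 23 immediate early genes 3 were called in each direction, Fosl1 rising by 1.23 ± 0.30. The immediate early count higher was 1 without WT replicate 1 or WT replicate 2, and the count lower was 0 without WT replicate 1, WT replicate 3 or PLD replicate 3 and 1 without PLD replicate 1 or PLD replicate 2. Hypoxia targets had 1 lower without WT replicate 2, and chemokines and cytokines 1 lower without WT replicate 2, PLD replicate 2 or PLD replicate 3. On the epithelial scale Il1rn and Egln3 were the only members of these 5 lists called higher.

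Of 12 polycystic disease genes 2 were called higher and 3 lower, a share near the 40.0% of all genes, and 1 was lower without WT replicate 2. Pkd1 (ENSMUSG00000032855.6, chromosome 17 from 24549834 to 24596508), which encodes polycystin-1, had 316, 385 and 345 CPM in WT and 207, 208 and 195 CPM in PLD (-0.78 ± 0.21), and its call was lost without WT replicate 2 (adjusted p = 0.0509 by edgeR). Pkd2 (ENSMUSG00000034462.9, chromosome 5 from 104459450 to 104505819), the channel polycystin-2, had 221, 245 and 257 CPM in WT and 409, 337 and 362 CPM in PLD (0.62 ± 0.12). Prkcsh, a glucosidase subunit of the endoplasmic reticulum, had 107, 123 and 92.5 CPM in WT and 172, 171 and 175 CPM in PLD (0.68 ± 0.11). Sec63, which helps proteins enter that compartment, had 119, 177 and 151 CPM in WT and 109, 104 and 104 CPM in PLD, a call lost without any library except WT replicate 1. Pkhd1 (fibrocystin) had 185, 131 and 250 CPM in WT and 306, 205 and 310 CPM in PLD and was not called. None of these 5 genes was near 0 in PLD, and the labels give no target to check. Relative to the reference genes all 12 were lower, as were 89.4% of all genes, Pkd1 by more (-2.89) than Pkd2 (-1.47).

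Primary cilium genes divided into 6 higher and 6 lower of 33, a share near the 40.0% of all genes, with a median of 0.14. Single libraries decided many of the calls. The counts were 2 higher and 4 lower without WT replicate 3, and 3 higher and 2 lower without WT replicate 2 or PLD replicate 1. They were 5 higher and 2 lower without PLD replicate 2, and 3 higher and 4 lower without PLD replicate 3. Ift46, a subunit of the intraflagellar transport complex, had 23.9, 27.3 and 31.8 CPM in WT and 43.3, 43.6 and 42.6 CPM in PLD, and the ciliary trafficking gene Tulp3 had 39, 44.1 and 40.9 CPM in WT and 22.3, 27 and 27.5 CPM in PLD. Chromatin genes were divided too, and over all genes 19.7% were called higher and 20.3% lower. Of 16 histone acetyltransferase genes 6 were higher and 0 lower, with Hat1 at 1.00 ± 0.14. Kat2a had 46.8, 48.6 and 41.1 CPM in WT and 35.5, 53 and 40.3 CPM in PLD, and Kat2b 75.8, 83.8 and 97.2 CPM in WT and 80.5, 105 and 75.2 CPM in PLD, both overlapping and not called. Of 18 histone demethylases 4 were higher and 3 lower. Kdm4a and Kdm4b were not called, and Kdm4c had 37.8, 46.7 and 43.3 CPM in WT and 34.5, 31.5 and 28.3 CPM in PLD (-0.44 ± 0.12), a call lost without WT replicate 2, PLD replicate 2 or PLD replicate 3. Of 25 methyltransferase and Polycomb genes 4 were called each way, and of 17 deacetylases 5 each way. Without single libraries the methyltransferase count lower ran from 0 to 2 for all 6, the deacetylase count lower was 2 or 3 in 5 of 6 cases and 4 without WT replicate 1, where 3 were higher, and the demethylase count lower was 1 without PLD replicate 2 or PLD replicate 3. Ehmt2 rose by 0.87 ± 0.18 and Hdac11 by 1.58 ± 0.37, while Hdac9 fell by 1.73 ± 0.34. Against the 6 reference genes no member of these 5 lists was higher.

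The same comparison 1 month after tamoxifen used 6 other libraries, with 17746740 to 29277311 counts, of which 1 stood apart. WT replicate 3 at 1 month lay at -4.56 on the first principal component, beside PLD replicate 3 at 1 month (-2.58) and far from the other WT libraries at 1 month (-33.6 and -40.0). Counts of this library differed from theirs by a chi-square per degree of freedom of 195 and 196, against 37.3 between those 2. With all 6 libraries 892 genes were called at 1 month (5.03%), 533 higher and 359 lower (2.02%). Without WT replicate 3 at 1 month 3485 were called, and without PLD replicates 1 and 2 at 1 month 114 and 99. Without WT replicates 1 and 2 at 1 month the counts were 293 and 274. Of the 892 genes, 690 were called in the same direction at 2 months, 77.4% of the calls at 1 month and 9.73% of those at 2 months, 8 were called the opposite way and 194 were not called.

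The difference between the effects at both times was itself tested as an interaction, which called 1008 genes (5.68%), 453 higher (2.55%) and 555 lower (3.13%), 977 of them also called at 2 months. The number depends on single libraries. On leaving out WT replicate 2 at 2 months it was 100, and on leaving out PLD replicates 1, 2 and 3 at 2 months it was 244, 575 and 299. It was 456 without WT replicate 3 at 2 months, 516 without WT replicate 1 at 1 month, and 217, 603 and 213 without PLD replicates 1, 2 and 3 at 1 month. Without WT replicate 3 at 1 month, the library that stood apart, it was 1413. Leaving out 1-month libraries was added after the data were seen.

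Psca, with an effect of 6.24 at 1 month, was not called as different between the times (1.64, adjusted p = 0.38), nor was Esr1 (-0.51, adjusted p = 0.58). The effect on Areg was 4.73 higher at 2 months (adjusted p = 0.013), with adjusted p of 0.00801 to 0.0431 on leaving out any 1 of the 12 libraries. That on Lgals4 was 3.72 higher (adjusted p = 0.01), with adjusted p of 0.00572 to 0.0347. Wnt9b and Rspo3, at -0.08 and -0.20 at 1 month, gave interactions of -4.89 and -4.74 (adjusted p = 0.0077 each). Their adjusted p on leaving out 1 library ran from 0.00696 to 0.0279 and from 0.00582 to 0.0279, so these 4 calls held in all 12 cases.

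The endothelial lists depended more on single libraries. In the interaction 12 of 16 pan-endothelial and 9 of 12 sinusoidal genes were called lower, with medians of -2.74 and -3.20. Without WT replicate 2 at 2 months 0 of either list were called, with medians of -2.42 and -2.93. Pan-endothelial calls were 2 without PLD replicate 1 or 3 at either time, 4 without WT replicate 1 at 1 month and 6 without WT replicate 3 at 2 months. Sinusoidal calls were 1 and 2 without PLD replicates 1 and 3 at 2 months and 3 without PLD replicate 1 or 3 at 1 month. Without WT replicate 3 at 1 month 14 and 10 were called. The medians were below 0 in all 12 cases. At 1 month itself 0 of either list were called, with medians of -0.39 and 0.69, and 4 pan-endothelial genes were called lower without WT replicate 3 at 1 month. Smooth muscle genes gave no interaction call with all libraries. At 1 month 2 of the 13 were called lower, with a median of -1.59, and without WT replicate 3 at 1 month 12 were, with a median of -2.07.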

How the data were processed

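Gene counts were made by the authors with featureCounts 1.6.0 in paired-end mode, without strand and without reads that fit several genes, on GENCODE annotation of mm10, per the file headers; the submitters' processing notes also name STAR 2.7.4a, SAMtools 1.12 and DESeq2 1.26.0. The deposited values are raw counts per gene. Symbols came from the Ensembl identifiers, which matched 55141 of 55401 genes. The 12 untreated libraries were fitted together with edgeR 4.0.16 in R 4.3.3 (quasi-likelihood F-test, TMM scaling, filterByExpr by group, Benjamini-Hochberg adjustment over all genes tested), with 1 mean per group and a threshold of 0.05. SE is the absolute log2 fold change divided by the root of F. The epithelial scale replaced TMM by the mean log2 CPM of 6 genes, without a prior count. A prior count of 2 was used for the log2 CPM behind the principal components, the correlations between libraries and the list means. The interaction subtracted the effect at 1 month from that at 2 months. The fit was tested on simulated data. The range of total counts is given in the report; counting intervals and the ratios with few counts cover counting error only.

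Named genes were the 15 largest increases and 15 largest decreases among called, non-overlapping genes with a mean of at least 10 CPM, the 10 most abundant called genes of each group, the 10 largest changes on the epithelial scale, the 6 largest interactions, up to 4 called genes with the smallest p in each list, and a fixed set of disease, chromatin and marker genes. Predicted genes, pseudogenes and sex-linked transcripts were left out of the ranked parts. The 13 marker lists, 39 pathway lists, the 6 reference genes and all members were chosen with earlier results of these data known. Alternatives were other scalings, no filter, DESeq2 1.42.0, limma-voom (limma 3.58.1), only the 6 libraries, a replicate block and leaving out each library at 2 months; leaving out each library at 1 month was added after the data were seen. The treated libraries of the series were not used here. Some genes that the naming rule selects are not reported here.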

Additional observations from a re-analysis of the deposited data

Results flagged for a closer look

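The effect of PLD differed between 2 months and 1 month, by the interaction test, in 1008 genes. Among those at 10 CPM or more, 6 genes had the largest differences, all towards lower in PLD at 2 months, with adjusted p by edgeR. Dnase1l3, Clec4g and Stab2, genes of sinusoidal endothelium, had interactions of -6.24 ± 1.15 (adjusted p = 0.019), -5.93 ± 1.07 (adjusted p = 0.018) and -5.86 ± 1.20 (adjusted p = 0.025). At 1 month none of the 3 was called. Dnase1l3 had 37.7, 136 and 12.2 CPM in WT and 294, 117 and 217 CPM in PLD (adjusted p = 0.19), and Clec4g had 40.5, 104 and 12.1 CPM in WT and 192, 76.7 and 141 CPM in PLD (adjusted p = 0.26). Stab2 had 89.6, 170 and 16.9 CPM in WT and 408, 133 and 333 CPM in PLD (adjusted p = 0.24). The groups overlapped in each, and the lowest value was in WT replicate 3 at 1 month, a library that stood apart from its group. Without WT replicate 2 at 2 months the 3 interactions were not called (adjusted p of 0.0501, 0.0501 and 0.0671), nor without PLD replicate 1 at 2 months (0.0539, 0.0524 and 0.0666). Dnase1l3 was also lost without PLD replicate 3 at 2 months (0.0511), and Stab2 without that library (0.0623), WT replicate 1 at 1 month (0.0526), PLD replicate 1 at 1 month (0.0619) or PLD replicate 3 at 1 month (0.0653). The 3 genes share a cell type, so they are not separate observations. Sprr2b, Adh6b and Plppr5 had interactions of -9.60 ± 1.40 (adjusted p = 0.011), -6.73 ± 0.88 (adjusted p = 0.0077) and -5.41 ± 1.00 (adjusted p = 0.019). The call of Plppr5 was lost without WT replicate 2 at 2 months (0.0552) or PLD replicate 1 at 2 months (0.0544). The value of Sprr2b rests on 1 count in the PLD libraries at 2 months and on a family of near-identical genes.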

How the results depend on the processing

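Of the 7091 genes called, 73% to 83.4% were called in the same direction after leaving out 1 library, with counts from 5324 to 6350. Replicate numbers showed no pairing by this measure: deviations from the group mean correlated at -0.07, 0.08 and -0.23 between same-numbered libraries. Between libraries of unlike number they ran from -0.18 to 0.29. Deviations from a mean of 3 libraries are bound to each other, so these values cannot decide whether libraries were paired. With the replicate block 4872 genes were called, and the interaction gave 0 genes by edgeR (3047 at an unadjusted p under 0.05). The interaction gave 2282 genes with no filter on low counts, 2343 with DESeq2, and 100 to 1413 on leaving out 1 of the 12 libraries. On leaving out a library at 1 month 6502 to 8622 genes were called at 2 months. Of 271 named genes that were called, 8 to 19 lost the call without 1 library, 24 with the replicate block and 10 with limma-voom, and 0 reversed. Genes that were not called changed sign in some settings. On leaving out 1 library Kat2a ran from -0.23 to 0.08 (0.08 without PLD replicate 1, 0.01 without PLD replicate 3), Kat2b from -0.11 without PLD replicate 2 to 0.16 (-0.06 without WT replicate 1), Col1a1 from -0.38 to 0.53 (0.53 without WT replicate 2, 0.41 without PLD replicate 2) and Cftr from -0.02 without PLD replicate 1 to 0.71. With upper-quartile scaling Kat2b was -0.04 and Kdm4a -0.02. The cause was not tested. Genes under about 1 CPM in both groups give little precision at this depth.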
